A study of Saccharomyces cerevisiae with 16 samples.

Results

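The part of the yeast pre-rRNA that follows the A2 cleavage site was described across 4 groups of libraries. It comprised nucleotides 2713 to 3251 of the deposited 35S profile and was chosen by position alone, 539 of 6647 nt. It holds the first internal transcribed spacer after A2 (ITS1, 2713 to 2861), the 5.8S rRNA (2862 to 3019) and the second internal transcribed spacer (ITS2, 3020 to 3251). The profiles came from small subunit (SSU) processomes of Saccharomyces cerevisiae, which had been purified through a TAP tag on Utp10, a protein of that particle. The cells carried wild-type Has1 (WT) or Has1 with the H375A substitution, and both genotypes shared the tagged bait. Mid-log cultures in YPD had received 1% dimethyl sulfate (DMS), for 5 min at 30 °C, or none. Each of the 4 groups (WT untreated, WT DMS, H375A untreated, H375A DMS) had 4 libraries, given as biological replicates, and DMS and untreated libraries of the same genotype and number belonged together. How the Has1 forms were expressed is not given in the sources used here.

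In yeast, one long precursor holds 18S, 5.8S and 25S, and cleavage at A2 parts the RNA of the small subunit from that of the large one. The RNA after A2 is cut again at A3 by RNase MRP and trimmed to the 5′ end of 5.8S at B1, while ITS2 is opened at C2 by Las1 and removed from both sides, which leaves 5.8S base-paired with 25S. Has1 is a DEAD-box helicase that takes part in the assembly of both subunits. In DMS-MaPseq, DMS methylates the pairing face of A and C where that face is free, and reverse transcription past the methylated base leaves a mutation in the read.

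The 3 sequences are shown as the profile files give them, 5′ to 3′, because the results below are tied to single nucleotides and to predicted hairpins in them. Capitals mark the 6 A or C sites of each stretch with the largest rate added by DMS among those with at least 30 reads in each of the 16 libraries. No genome build was named in the files, so positions are those of the profile.
ITS1 after A2: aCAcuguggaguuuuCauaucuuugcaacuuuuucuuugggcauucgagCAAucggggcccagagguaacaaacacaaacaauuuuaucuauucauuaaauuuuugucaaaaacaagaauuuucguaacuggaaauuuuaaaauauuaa
5.8S: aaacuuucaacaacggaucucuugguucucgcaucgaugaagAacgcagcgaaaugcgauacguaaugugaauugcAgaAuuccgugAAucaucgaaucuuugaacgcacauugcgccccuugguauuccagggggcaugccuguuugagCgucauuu
ITS2: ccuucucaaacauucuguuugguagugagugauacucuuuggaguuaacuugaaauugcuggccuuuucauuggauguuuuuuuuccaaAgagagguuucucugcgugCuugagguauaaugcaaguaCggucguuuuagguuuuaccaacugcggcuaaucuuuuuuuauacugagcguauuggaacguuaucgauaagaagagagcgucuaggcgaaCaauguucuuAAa
The stretches are 149, 158 and 232 nt long, and the length of 5.8S was that of the RefSeq gene RDN58-1. ITS1 was divided at A3 and ITS2 at C2. Both sites were placed from general knowledge and are approximate, which gave A2 to A3 (2713 to 2784), A3 to B1 (2785 to 2861), ITS2 to C2 (3020 to 3157) and C2 to C1 (3158 to 3251). The stretch from A3 to B1 is rich in A and U, with 34 A and 29 U among its 77 nt.

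Depth limited what could be read here. Median effective depth, the number of reads of sufficient quality over a nucleotide, was 314 to 4933 over 18S, 85.5 to 1741 over 5.8S, 80.5 to 2323 from A2 to A3, 35 to 622 over ITS2 and only 12 to 717 from A3 to B1. H375A replicate 3 stood apart as the deepest library of both treatments and held 48.2% of the reads of the 8 DMS libraries over the region. Of the 245 A and C sites, 151 had at least 30 reads in all 16 libraries, namely 29 of 75 in ITS1, 74 of 77 in 5.8S and 48 of 93 in ITS2. None of the 43 sites from A3 to B1 did. Rates were therefore summed over stretches and over libraries of a group as well as given by site.

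Read depth was higher over 5.8S and 25S than over the spacer parts directly beside them, and fell near the approximate A3 site. From A2 to A3, however, mean depth over 18S exceeded that of 5.8S in all 4 H375A DMS libraries. Replicates 1 to 4 had 0.297, 0.317, 0.406 and 0.390 against 0.295, 0.270, 0.366 and 0.304. Without DMS it did so in H375A replicates 3 and 4, and in WT in no library. The nucleotide of highest depth lay in 5.8S in 15 of 16 libraries, and H375A DMS replicate 4, with its peak between A2 and A3, was the exception. The lowest depth lay between A3 and B1 in 10 of 16 libraries and in ITS2 in the other 6. In the plot of depth along the region, depth stepped down near A3, up at B1, down past the 3′ end of 5.8S and up again at the start of 25S. Mean depth from A3 to B1 over that from A2 to A3 was 0.297 ± 0.110 in the WT untreated libraries and 0.215 ± 0.079 in the H375A untreated ones (SD, n = 4). Reads over 5.8S can come from the mature rRNA and from every precursor that still holds it, and the profiles cannot tell these apart. Likewise, fewer molecules with a stretch and poorer recovery of that stretch cannot be told apart in bulk libraries.

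**Figure D1:**
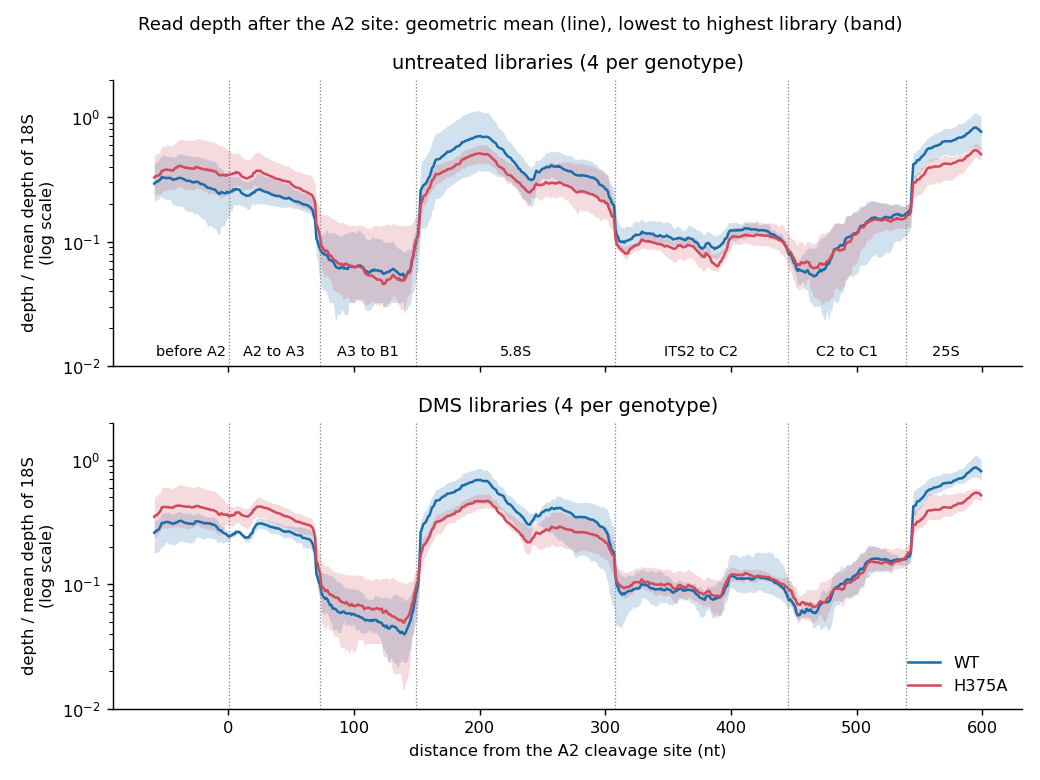
Read depth over the mean read depth of 18S (log scale) against the distance from the A2 site in nucleotides, for untreated (top) and DMS (bottom) libraries; lines are geometric means of 4 libraries and bands run from the lowest to the highest library. The H375A line lies above the WT line up to A3 and below it across 5.8S and the start of 25S. In ITS2 the bands of the genotypes overlap.

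In the H375A libraries, depth relative to 18S was higher from A2 to A3 and lower over 5.8S, and neither difference passed after adjustment. With 4 against 4 libraries, an adjusted p could fall under 0.05 only if most of the 10 tests reached the smallest possible p. Not passing therefore cannot decide whether these parts differ. With DMS, depth from A2 to A3 over that of 18S was 0.236, 0.275, 0.285 and 0.234 in WT replicates 1 to 4. In H375A it was 0.297, 0.317, 0.406 and 0.390. Every H375A library was thus above every WT library, with a mean 1.36 times as high (log2 difference 0.45; exact two-sided permutation test, p = 0.0286, the smallest that 4 against 4 libraries can give; adjusted over 10 tests 0.143). Without DMS, WT libraries had 0.183, 0.1998, 0.289 and 0.243, and H375A libraries 0.229, 0.277, 0.425 and 0.324. These groups overlapped, although the log2 difference was nearly the same at 0.44 (exact permutation p = 0.143, adjusted 0.429). Same-numbered WT and H375A libraries matched best in their deviations of coverage in 4 of 4 pairs without DMS, but in only 2 with DMS. H375A was higher in 4 of 4 pairs both with and without DMS (exact sign-flip permutation p = 0.125 for each, the smallest that 4 pairs can give). The spacer just before A2 was also higher over 18S in H375A, by log2 values of 0.29 without and 0.32 with DMS (exact permutation p = 0.371 and 0.286). Over that spacer, depth from A2 to A3 differed by a log2 value of 0.16 without and 0.12 with DMS (exact permutation p = 0.371 and 0.543).

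For 5.8S, the DMS libraries had 0.380, 0.523, 0.471 and 0.415 of the depth of 18S in WT. In H375A the values were 0.295, 0.270, 0.366 and 0.304, all below the lowest WT library (log2 difference -0.53, exact permutation p = 0.0286, adjusted 0.143). Untreated WT libraries had 0.293, 0.598, 0.540 and 0.405, of which replicate 1 was as low as the H375A libraries. Untreated H375A libraries had 0.348, 0.299, 0.373 and 0.298 (log2 difference -0.43, exact permutation p = 0.171, adjusted 0.429). The rRNA that 5.8S pairs with, 25S, differed from 18S by a like amount, with log2 differences of -0.52 without and -0.58 with DMS (exact permutation p = 0.0286 for each). Over the depth of 25S, in turn, 5.8S differed by a log2 value of 0.09 without DMS and 0.05 with it (exact permutation p = 0.571 and 0.629).

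The spacers on either side of 5.8S did not separate by genotype. From A3 to B1, depth with DMS was 0.042, 0.060, 0.092 and 0.044 of that of 18S in WT and 0.032, 0.057, 0.118 and 0.102 in H375A, which overlap widely (log2 difference 0.29, exact permutation p = 0.629). ITS2 up to C2 had 0.081, 0.109, 0.091 and 0.112 in WT and 0.104, 0.090, 0.126 and 0.092 in H375A (log2 difference 0.07, exact permutation p = 0.686). From C2 to C1 the means with DMS were 0.112 ± 0.020 and 0.112 ± 0.022 (SD, n = 4). The step down from 5.8S into ITS2 was smaller in the H375A libraries with DMS, without passing after adjustment. Here too, most of the 7 tests would have had to reach the smallest possible p for any to pass. There, ITS2 up to C2 had 0.212, 0.208, 0.194 and 0.270 of the depth of 5.8S in WT and 0.355, 0.334, 0.345 and 0.304 in H375A. The groups did not overlap (log2 difference 0.61, exact permutation p = 0.0286, adjusted over 7 steps 0.1). Without DMS they did, at 0.349, 0.166, 0.240 and 0.271 in WT and 0.253, 0.271, 0.278 and 0.369 in H375A (log2 difference 0.23, exact permutation p = 0.371). The step from C2 to C1 up to 25S was also smaller with DMS in H375A, 2.67 ± 0.38 against 3.97 ± 0.57 (SD, n = 4; exact permutation p = 0.0286, adjusted 0.1).

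**Figure D2:**
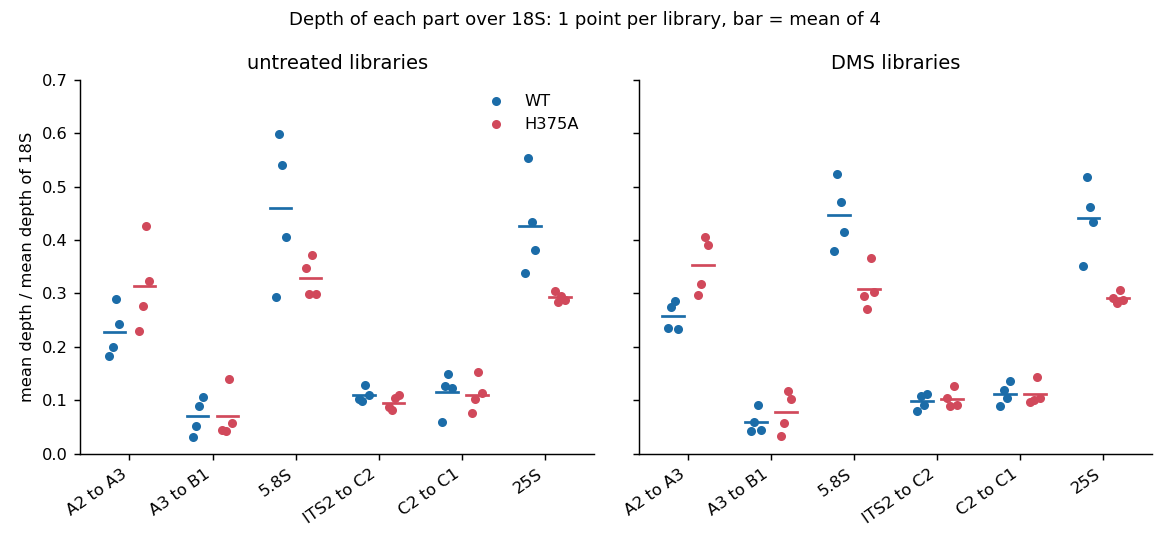
Mean read depth of each part over the mean read depth of 18S, 1 point per library and a bar at the mean of 4, for untreated (left) and DMS (right) libraries of both genotypes. With DMS the points of the genotypes do not overlap from A2 to A3, in 5.8S and in 25S, and they overlap in the other 3 parts.

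DMS left its mark on A and C in each stretch and in both genotypes. At A, the summed mutation rate was 1.95 to 3.63 times the untreated rate, and at C 1.68 to 2.43 times, with every DMS library above every untreated library in all 12 comparisons and in 4 of 4 pairs of each. A sites of ITS1, for example, had untreated rates of 0.184%, 0.425%, 0.437% and 0.385% in WT replicates 1 to 4 and DMS rates of 1.03%, 0.967%, 1.21% and 1.03%. For C in 5.8S, where the lift was smallest, untreated WT libraries had 0.308%, 0.289%, 0.271% and 0.371% and DMS libraries 0.435%, 0.496%, 0.513% and 0.633%. Each exact permutation p was 0.0286, the floor of the design, and was 0.0527 after adjustment over 24 tests, so none passed 0.05. With p at that floor, the adjusted value depends on how many of the 24 tests reach it. This test does not use the pairing by number. With it, the exact sign-flip permutation p was 0.125 in each of the 12 comparisons, the smallest that 4 pairs can give. G, which DMS does not mark on its pairing face, overlapped between treatments in all 6 comparisons, and U in 5 of 6. The exception, U of ITS2 in WT, had 0.350% ± 0.056 without and 0.477% ± 0.029 with DMS (SD, n = 4; exact permutation p = 0.0286, adjusted 0.0527).

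Among the stretches, 5.8S carried the lowest A and C rate in every DMS library. The 8 DMS libraries had 0.786% ± 0.082 in 5.8S, against 1.17% ± 0.09 in ITS1, 1.09% ± 0.05 in ITS2, 1.03% ± 0.11 in 18S and 0.987% ± 0.099 in 25S (SD, n = 8). 5.8S was the lower in 8 of 8 libraries against each of the 4, and each of these differences passed (exact two-sided sign-flip permutation test, p = 0.0078, the smallest that 8 libraries can give; adjusted over 9 tests 0.0176). ITS1 was above 25S in 7 of 8 libraries (adjusted permutation p = 0.028), ITS2 above 25S in 7 of 8 (0.047), and ITS1 above 18S in 7 of 8 without passing (0.060). After subtraction of the untreated library's rate, 5.8S stayed below ITS1, ITS2 and 18S (0.430% against 0.634%, 0.676% and 0.637%; adjusted permutation p = 0.047, 0.035 and 0.035), whereas 25S, at 0.543%, did not pass (0.070). The differences of ITS1 and ITS2 from 25S no longer passed either (0.305 and 0.053).

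The spacers stood above the mature rRNAs at C and not at A. At C alone, the mean DMS rate was 1.30% ± 0.14 in ITS1 and 1.26% ± 0.36 in ITS2, against 0.770% ± 0.040 in 18S, 0.693% ± 0.031 in 25S and 0.583% ± 0.092 in 5.8S (SD, n = 8). By library, C of ITS1 read 1.31%, 1.4002%, 1.25% and 1.30% in WT and 1.29%, 0.987%, 1.41% and 1.43% in H375A. C of 18S read 0.714% to 0.844% in the same WT libraries, so that every library had the higher rate in ITS1. ITS1 exceeded 18S, 25S and 5.8S in 8 of 8 libraries each (adjusted sign-flip permutation p = 0.014), and ITS2 exceeded 18S and 25S in 7 of 8 (0.020) and 5.8S in 8 of 8 (0.014). Untreated C rates were higher in the spacers too, 0.583% ± 0.152 in ITS1 and 0.505% ± 0.192 in ITS2 of WT against 0.367% ± 0.014 in 18S (SD, n = 4). At A alone the order was another: ITS1, at 1.07% ± 0.11, and ITS2, at 0.979% ± 0.248, lay below the 1.23% ± 0.17 of 18S (SD, n = 8), and neither difference passed (adjusted permutation p = 0.176 and 0.053). 5.8S, at 0.963% ± 0.120 at A, was below 18S and 25S in 8 of 8 libraries (adjusted permutation p = 0.035), but its differences from ITS1 (lower in 5 of 8) and ITS2 (lower in 4 of 8) did not pass (0.231 and 0.8125).

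**Figure D3:**
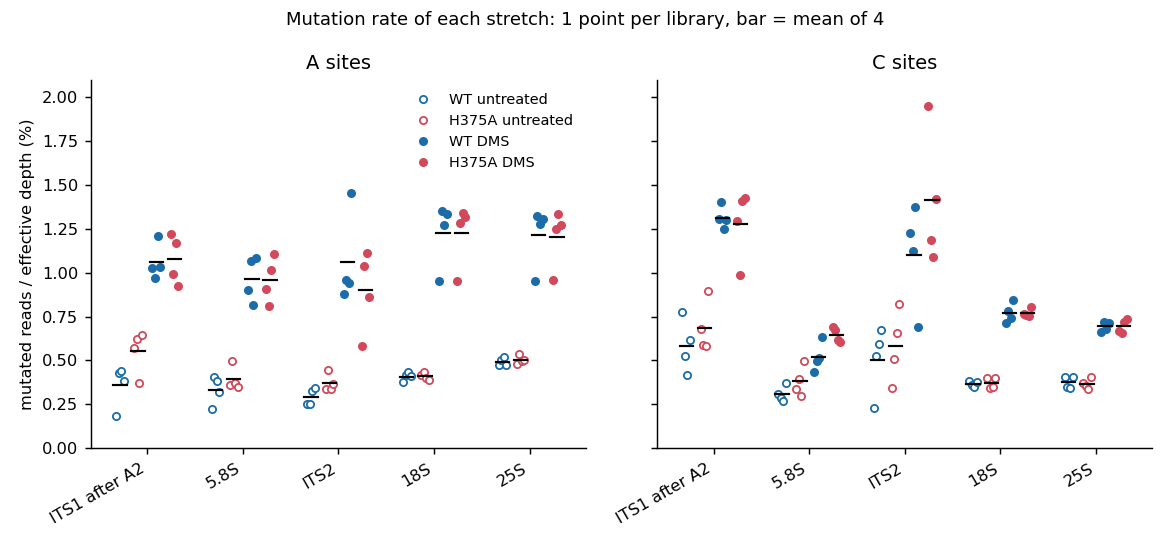
Mutated reads over effective depth in percent, summed over the A sites (left) and the C sites (right) of each stretch; 1 point per library, filled with DMS and open without, and a bar at the mean of 4. At C, the DMS points of ITS1 and most of those of ITS2 lie above those of 18S, 25S and 5.8S, and at A the stretches overlap.

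High untreated rates were found at 3 sites, of which C2782 and C3181 enter the sums over C and G3096 does not. C2782, near the A3 site, was mutated in 3.81% of untreated and 7.58% of DMS reads (1759 and 1688 reads). G3096 in ITS2 had 12.02% and 13.2%, and C3181 between C2 and C1 had 6.21% and 5.09%. Their mean untreated rates over libraries were 6.78%, 11.96% and 5.69%, the only ones of at least 5% in the region. With such sites left out, C rates were 1.10% in ITS1 and 1.17% in ITS2, and the differences from 18S, 25S and 5.8S passed with the same adjusted p-values (0.014 to 0.020).

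In ITS1, of the 6 ranked sites with the largest rate added by DMS, 2 lay within a few nucleotides of A2 and 3 in 1 short loop. C2782, described above, gained 3.77 points with all libraries summed, more than any of them. Without H375A replicate 3 it gained 1.67 points, less than C2762 (3.28) and C2714 (1.89). It had 29 reads in its shallowest library and was not ranked. With reads summed over 8 libraries per treatment, C2762 had 3.37% with DMS (95% Wilson interval 2.82% to 4.02%) and 0.340% without. Its DMS rate was 3.34% in WT and 3.38% in H375A, and single libraries ran from 2.17% to 6.36%. Next to it in the sequence, A2763 had 1.596% against 0.206%, and A2764 1.88% against 0.456%. These 3 sites form, with the G before them, the loop gcaa of a hairpin predicted with ViennaRNA. A and C of the loop had 2.30% with DMS and those of its 5-pair stem 0.540%. Over the 8 libraries the loop ran from 1.34% to 4.06% (median 2.36%), and it was above the stem in 8 of 8, while untreated rates were 0.332% and 0.511%. Since the loop holds 3 of the 6 sites, this contrast was favoured by their choice.

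Directly after A2, C2714 had 2.19% with DMS against 0.591% without, and A2715 1.93% against 0.182%. In WT these read 2.44% and 1.39%, in H375A 2.101% and 2.13%. C2728 completed the 6 with 1.66% against 0.302%. Its predicted loop, 2724 to 2732, had 1.11% with DMS against 0.965% in the stem and was higher in 5 of 8 libraries. The other predicted loop of ITS1, 2820 to 2824, had 1.86% against 1.03% and was higher in 6 of 8. C2716, at 1.54% against 0.380%, was next in order and just outside the 6. All 6 were predicted unpaired, as were 15 of the 29 A and C sites of ITS1 with the depth to be ranked. From nucleotide 70 after A2 onwards, no A or C of ITS1 had the depth to be ranked.

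In 5.8S, the 6 ranked sites lay between nucleotides 43 and 151. A2904, nucleotide 43 of 5.8S, had 1.90% with DMS (95% Wilson interval 1.58% to 2.29%) against 0.114% without. It read 1.48% in WT and 2.27% in H375A, with single libraries from 0.546% to 2.80% (edgeR log2 difference 0.57, SE 0.35, adjusted p = 0.609). A2938 and A2941, nucleotides 77 and 80, had 2.20% against 0.722% and 1.79% against 0.385%. A2949 and A2950, nucleotides 88 and 89, had 1.82% against 0.431% and 1.75% against 0.354%, and lay in a predicted loop of 3 nt whose A sites, also favoured by this choice, exceeded the stem in 8 of 8 libraries (1.79% against 0.690%). The predicted loop that holds A2904, 2901 to 2907, was below its stem (0.718% against 0.880%, higher in 1 of 8). The loop 2881 to 2884 was higher in 3 of 8 (0.342% against 0.299%) and 2986 to 2989 in 7 of 8 (1.31% against 0.286%). C3012, nucleotide 151, was the only C of the 6, with 2.45% against 0.985%. A2914, at 1.55% against 0.264%, stood just outside. The first 25 nt of 5.8S were the reverse, where the scaled A and C rate averaged 0.243% ± 0.120 in WT libraries and 0.382% ± 0.096 in H375A libraries (SD, n = 4).

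In ITS2, C3148, nucleotide 129 of the spacer and close to C2, had 4.00% with DMS (95% Wilson interval 2.996% to 5.33%, 1099 reads) against 0.552% without. It read 4.50% in WT and 3.74% in H375A, and single libraries ran from 0 to 6.94% at depths from 34 reads. A3109 and C3128 had 2.73% against 0.164% and 2.60% against 0.442%. At the other end, next to 25S, A3249 and A3250 had 2.14% against 0.149% and 1.77% against 0.194%, and C3239 2.02% against 0.049%. C3142, at 1.71% against 0.150%, stood just outside. The only predicted hairpin loop of ITS2 with an A or C, 3032 to 3034, had 1.56% against 0.521% in its stem and was higher in 6 of 8 libraries.

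Over the 18 sites, the DMS rate was above the untreated rate in both genotypes at each, as their choice favours. Of the 18, 15 were predicted unpaired in the main folds described below, 6 in ITS1, 4 in 5.8S and 5 in ITS2. Among all A and C sites with at least 30 reads in all 16 libraries, 15 of 29 in ITS1 were predicted unpaired. In 5.8S these were 29 of 74 and in ITS2 15 of 48. The deepest library weighed on the choice: without H375A replicate 3, 5 of 6 sites in ITS1, 4 in 5.8S and 4 in ITS2 remained among the first 6. Across the 151 A and C sites with the depth, 27 gained at least 1 percentage point with DMS and 28 were lower with DMS than without. The summed DMS rates of WT and H375A correlated with Pearson's r = 0.825 over these 151 sites, and the untreated rates with r = 0.747. By stretch, r of the DMS rates was 0.922 in ITS1, 0.808 in 5.8S and 0.795 in ITS2. For the untreated rates it was 0.560, 0.897 and only 0.205. Such points share sequence and depth, and sites are not replicates.

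**Figure D4:**
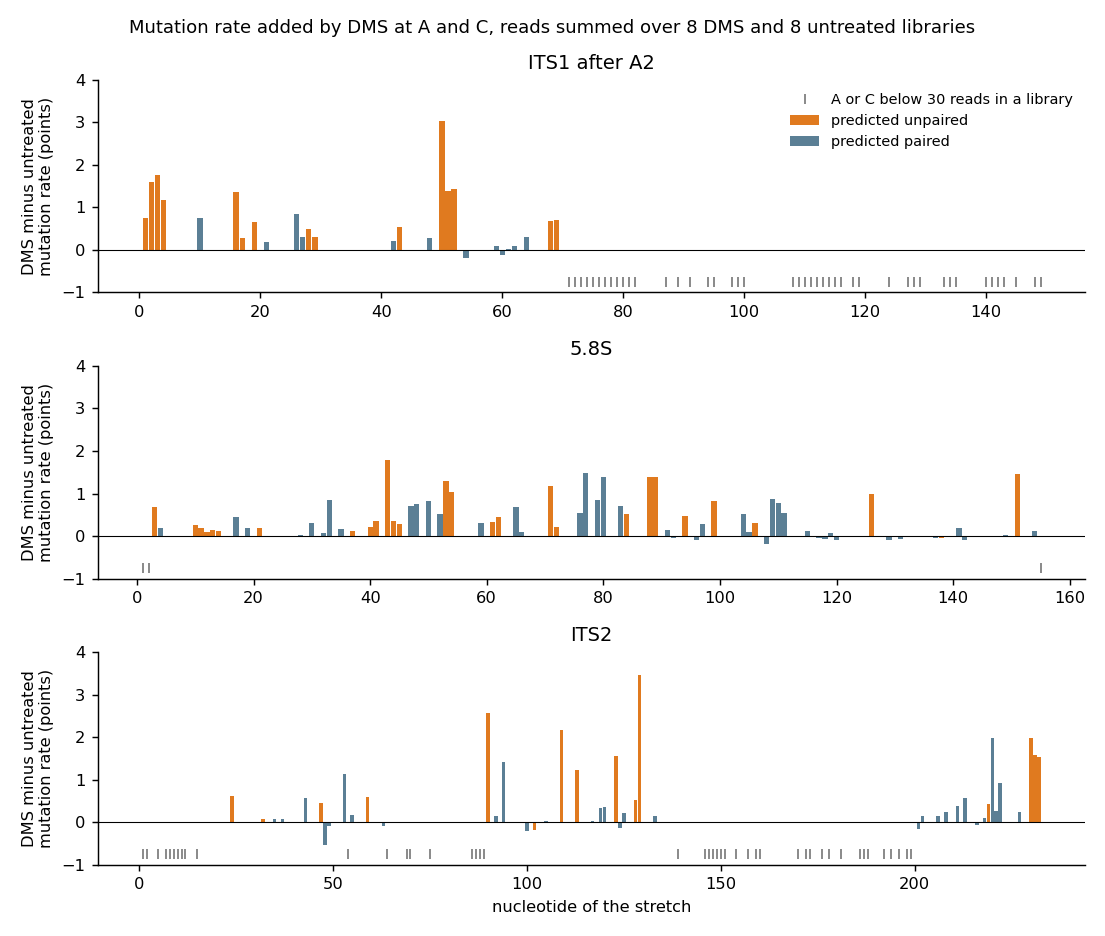
DMS rate minus untreated rate, in percentage points, at each A and C of the 3 stretches with at least 30 reads in all 16 libraries, reads summed over 8 DMS and 8 untreated libraries; colour gives the predicted pairing and grey ticks mark A and C sites below that depth. The tallest bars are C2762 in ITS1 and C3148 in ITS2, and the second part of ITS1 has ticks only.

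In the main folds, predicted pairing sorted the rates in the spacers more than in 5.8S. For these, ITS1 and ITS2 were folded alone and 5.8S together with the first 400 nt of 25S. In ITS2, predicted unpaired A and C had DMS rates of 1.58%, 2.03% and 2.26% (lowest, median and highest of 8 libraries), and paired ones had a median of 0.464%. The means were 1.96% ± 0.23 and 0.504% ± 0.110 (SD, n = 8), unpaired higher in 8 of 8 (exact sign-flip permutation p = 0.0078, adjusted over 3 stretches 0.0117). In ITS1 the unpaired rates were 1.04%, 1.48% and 1.68%, with means of 1.44% ± 0.20 and 0.656% ± 0.160 and 8 of 8 libraries higher (exact permutation p = 0.0078, adjusted 0.0117). In 5.8S the means were 0.832% ± 0.139 and 0.758% ± 0.133, higher in 5 of 8 (exact permutation p = 0.344). Untreated rates were also higher at unpaired than at paired sites of the spacers, 0.553% against 0.272% in ITS2 (8 of 8 libraries) and 0.553% against 0.354% in ITS1 (7 of 8). In 5.8S they were the reverse, 0.293% against 0.398% (higher in 1 of 8, exact sign-flip permutation p = 0.039). The median rate added by DMS was 0.353 points at unpaired and 0.163 at paired sites of 5.8S. It was 1.12 and 0.086 points in ITS2, and 0.743 and 0.295 in ITS1. The contrast depended on the fold. With the whole region folded as 1 molecule, the contrast was smaller in ITS2 than in 5.8S. There, ITS2 had 1.18% against 0.989% (7 of 8) and 5.8S 0.982% against 0.649% (7 of 8, exact permutation p = 0.0156).

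Genotype made no detectable difference to the DMS rate of any stretch. Rates were divided by a factor per library, 0.875 and 0.894 in replicate 1 of WT and H375A and 1.01 to 1.11 in the other 6, so that differences are relative to the median site of the profile. For ITS1, WT libraries had scaled A and C rates of 1.32%, 1.06%, 1.18% and 1.04%, and H375A libraries 1.403%, 0.975%, 1.18% and 1.02%. Replicate 1 was the highest of both groups, and the means, 1.15% ± 0.13 and 1.14% ± 0.19, differed far less than the libraries did (SD, n = 4; exact permutation p = 0.971). Untreated A and C rates of ITS1 were 0.453% ± 0.020 in WT libraries and 0.608% ± 0.121 in H375A libraries. After their subtraction, without scaling, the rates were 0.716% ± 0.055 and 0.553% ± 0.211 (SD, n = 4), which did not differ detectably (exact permutation p = 0.229, adjusted over 9 tests 0.566). 5.8S had 0.768%, 0.734%, 0.649% and 0.805% in WT and 0.901%, 0.739%, 0.772% and 0.786% in H375A, which overlap (exact permutation p = 0.314, adjusted over 7 tests 0.971). ITS2 had 1.15%, 0.938%, 1.07% and 1.07% in WT and 1.24%, 1.08%, 1.03% and 0.964% in H375A (exact permutation p = 0.8286). The 4 spacer parts did not pass either, the lowest p being 0.2 from C2 to C1 (1.03% ± 0.12 against 1.17% ± 0.13). Untreated A and C means were higher in H375A than in WT in 5.8S (0.389% ± 0.054 against 0.323% ± 0.040) and ITS2 too (0.450% ± 0.083 against 0.371% ± 0.098; SD, n = 4). They were close in 18S (0.394% against 0.390%) and in 25S (0.445% against 0.443%). These untreated differences were not tested by stretch.

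By site, 92 A and C sites of the region entered the comparison of genotypes, 21 in ITS1, 43 in 5.8S and 28 in ITS2. edgeR's quasi-likelihood test called none of them, against 38 of 1699 sites, or 2.24%, over the whole profile. At an unadjusted p under 0.05 there were 7 of 92, or 7.61%, against 9.83% of the profile. DESeq2 gave no adjusted p for any of the 92, of which 1 had an unadjusted p under 0.05, and called 18 sites of the profile. The median log2 difference of the 92 was 0.01, beside 0.03 over all sites, with a median SE of 0.60 against 0.45. In simulated counts on 1699 sites, changes of 2-fold were called in 32% and of 4-fold in 81%, so a change of 2-fold at one site would mostly be missed. The changed sites were drawn at random from the whole profile, where the median SE was smaller, so neither share holds for the region. The lowest p of the region, singled out here after its values were seen, belonged to A3240 in ITS2, with 1.197% of 585 reads in WT and 0.085% of 1179 reads in H375A (edgeR adjusted p = 0.182). It rests on 8 mutated reads.

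In 25-nt windows, none of 21 tested windows of the region was called, against 3 of 265, or 1.13%, over the profile. At an unadjusted p under 0.05 there were 2 of 21, against 12.5% of the profile, and by DESeq2 no window of the region or of the profile was called. The 2 windows were neighbours at the 5′ end of 5.8S. From 2862 to 2886, WT libraries had 0.357%, 0.244%, 0.292% and 0.077% and H375A libraries 0.473%, 0.373%, 0.432% and 0.252%. The groups overlapped (edgeR log2 difference 0.74, SE 0.27, adjusted p = 0.208). Untreated A and C rates of the same window were 0.049% ± 0.036 and 0.128% ± 0.053 (SD, n = 4), and the untreated rate over all bases had a log2 difference of 0.56 (edgeR adjusted p = 0.999). Its part in the DMS difference was not tested beyond the genotype by treatment term, which had a log2 value of -0.18 (edgeR adjusted p = 0.989).

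From 2887 to 2911, WT libraries had 0.415%, 0.581%, 0.365% and 0.661% and H375A libraries 0.742%, 0.671%, 0.644% and 0.718%. WT replicate 4 fell within the H375A range (edgeR log2 difference 0.38, SE 0.18, adjusted p = 0.385). The third lowest p belonged to 2987 to 3011, near the 3′ end of 5.8S, with 0.324%, 0.735%, 0.810% and 1.58% in WT and 0.632%, 0.660%, 0.556% and 0.521% in H375A, where the WT libraries alone spread over the whole range (edgeR adjusted p = 0.577). In counts simulated for the 265 windows, 2-fold changes were called in 100% of 30 changed windows, drawn at random from the whole profile. The median SE of the log2 difference was larger in the region, 0.26 against 0.17, so this share does not hold for the region. Without DMS, edgeR's test called none of 21 windows of the region and 0% of 266 over the profile, at adjusted and at unadjusted p under 0.05 alike. DESeq2 called none at an adjusted p under 0.05. The unadjusted count is below what chance gives, so the test was conservative and cannot show equal rates. H375A was higher in 15 of the 21 windows, or 71.4%, against 50.8% of windows over the profile. The median log2 difference was 0.145, against 0.007 over the profile. This shift was not tested. In counts simulated for the 266 windows, 2-fold changes were called in 93.3% of 30 changed windows, again drawn from the whole profile and not from the region.

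**Figure D5:**
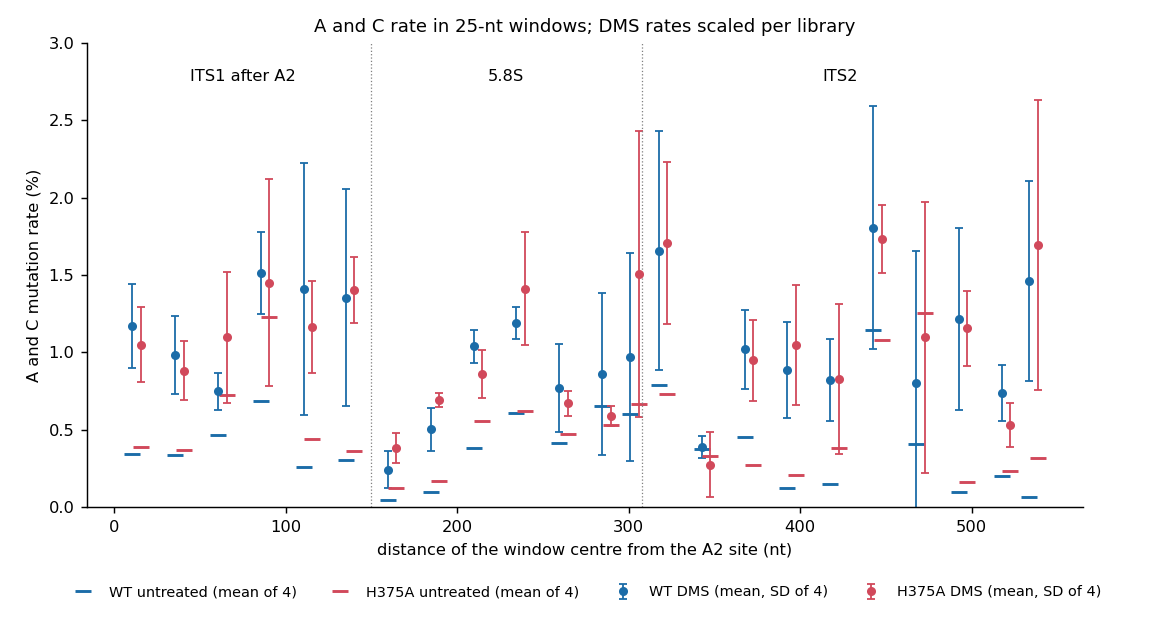
A and C mutation rate in percent of each 25-nt window (the last window of a stretch is shorter) against the distance of its centre from the A2 site; points with bars are means and SD of 4 DMS libraries after scaling, and dashes are means of 4 untreated libraries. The windows at the start of 5.8S are low in both genotypes, with H375A above WT in the first pair, and the bars of the genotypes overlap in most other windows.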

How the data were processed

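The authors deposited, per the file headers, counts for each nucleotide of each library (mutated reads, read depth and effective depth) and a mutation rate as a fraction, which the values show to be mutated reads over effective depth, without subtraction of untreated reads. Which aligner, caller and read filters were used, and in which versions, is not given in the sources used here; all rates depend on them. Names and lengths of rRNAs came from the RefSeq annotation.

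From these counts, depths were averaged and rates were computed by stretch, window and site with Python 3.11.15. Groups came from the sample titles. Coverage and stretch rates were tested with exact two-sided permutation or sign-flip tests, with Benjamini-Hochberg adjustment within each family. Sites (at least 30 reads in all 16 libraries, a mean DMS rate at least 0.2 percentage points over untreated, an untreated rate under 5%) and 25-nt windows (at least 3 A or C sites and 80 mutated reads) were tested over the whole profile with edgeR 4.0.16 in R 4.3.3, with effective depth and a scaling factor from 895 sites as offset; DESeq2 1.42.0 was the alternative. A call was an adjusted p under 0.05. Tests were checked on simulated counts. Structures were predicted with ViennaRNA 2.7.2. Intervals cover counting error only, since reads were not identified as molecules.

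Sites named in the text were, among A or C sites with at least 30 reads in all 16 libraries, the 6 of each stretch with the highest DMS minus untreated rate, the 3 windows with the lowest p and the sites with untreated rates of at least 5%. The stretches and tests were chosen with earlier results of these data known. Other choices tried were scaling, depth minimum, denominators, filters, folds, replicate numbers and leaving out each library. Same-numbered WT and H375A libraries deviated together in coverage without DMS (r of deviations from the group means 0.506 to 0.743). There, the own number was the best match in 4 of 4 pairs, but with DMS in only 2 (0.144 to 0.743). For rates it was the best match in 3 of 4 pairs without DMS (0.153 to 0.472) and in 3 with it (0.084 to 0.330).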

Additional observations from a re-analysis of the deposited data

Results flagged for a closer look

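Of 122 group values of 4 libraries each, 9 had a library far from the other 3, with a gap above Dixon's 95% critical value; chance gives about 6.1. Most came from thinly covered parts. H375A replicate 3, the deepest library, was high in depth over 18S from A3 to B1 without DMS (0.141, next 0.058) and from C2 to C1 with DMS (0.144, next 0.104). H375A DMS replicate 1 was low in depth from C2 to C1 over ITS2 up to C2 (0.931, next 1.11) and high in the scaled A and C rate from C2 to C1 (1.36%, next 1.12%). WT DMS replicate 3 was low in depth of 5.8S over A3 to B1 (5.14, next 8.74) and high in the A and C rate of ITS1 (1.22%, next 1.15%). The A rate of ITS2 was high in WT DMS replicate 4 (1.45%, next 0.961%), and the G rate of ITS2 was low in WT DMS replicate 1 (0.359%, next 0.606%). The A rate of 5.8S was high in H375A untreated replicate 2 (0.498%, next 0.373%).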

How the results depend on the processing

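No site or window of the region was called under any alternative run; DESeq2 gave no adjusted p for these sites. Coverage from A2 to A3 kept its direction in all 13 alternatives, and the direction of 5.8S over 18S turned only with 25S as the denominator. Some log2 coverage differences, none of which passed, turned sign: from A3 to B1 without DMS to 0.00771 with median depth, 0.508 over 25S and 0.344 over the 5′ ETS; over 25S, to 0.0856 for 5.8S, 0.313 for ITS2 up to C2 and 0.4996 from C2 to C1 without DMS, and to 0.05004 for 5.8S and 0.572 from C2 to C1 with DMS; over the 5′ ETS, to 0.150 for ITS2 up to C2 and 0.336 from C2 to C1 without DMS and 0.359 with it. The step from ITS2 up to C2 into C2 to C1 was -0.0846 with DMS.

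U of ITS2 in H375A gained 0.0272 points with DMS by the mean of site rates. Genotype differences in stretch rates, none called, turned to 0.0168 (ITS1) and 0.0139 (A2 to A3) with scaling on sites up to A2; -0.0407 (ITS2) and -0.0398 (A3 to B1) with scaling on 25S; -0.00623 (5.8S), -0.0576 (ITS2), -0.299 (A3 to B1) and -0.0590 (C2 to C1) after subtraction of untreated rates; and 0.0191 (ITS1), -0.0263 (ITS2) and 0.0264 (A2 to A3) without sites of high untreated rate, an alternative chosen after seeing the data.

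Of 9 differences between stretches, 6 passed, against 3 after subtraction (ITS1 minus ITS2 -0.0412, minus 18S -0.00270, minus 25S 0.0913; 5.8S minus 25S -0.113; ITS2 minus 25S 0.133) and 2 at A alone (ITS1 minus 5.8S 0.105, minus 18S -0.158, minus 25S -0.141; ITS2 minus 5.8S 0.0164, minus 18S -0.246, minus 25S -0.230). At C alone, ITS1 minus 18S was 0.527 and ITS2 minus 18S 0.487, or 0.326 and 0.403 without sites of high untreated rate, where ITS1 minus ITS2 was -0.0766. With 4 libraries of 1 genotype, which allow no p below 0.125, 0 passed, by construction: in WT, ITS1 minus 5.8S was 0.411, ITS2 minus 5.8S 0.320, ITS1 minus 25S 0.180, 5.8S minus 18S -0.272, 5.8S minus 25S -0.231 and ITS2 minus 25S 0.0888; in H375A, 0.347, 0.280, 0.177, -0.214, -0.170 and 0.110. The joined fold, also chosen after seeing the data, gave unpaired minus paired differences of 0.334 and, at a depth of 30, 0.348 in 5.8S and 0.0626 in ITS2.

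Over the profile, 23 sites were called without scaling, 18 by DESeq2 and 0 by the interaction term, against 38; leaving out 1 library gave 12 (without H375A replicate 3) to 39. Window calls were 0 without scaling, with scaling on sites up to A2 or on 25S, by DESeq2 and by the interaction, 5 in 50-nt windows, and 0 to 7 with 1 library left out. With the replicate block 42 sites and 5 windows were called, 0 of them in the region, and the block changed no other call. The interaction values of the first 2 windows of 5.8S were -0.182 and -0.125. The cause of these changes was not tested.

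With 1 library left out, log2 coverage differences ranged from -0.398 to 0.240 (A3 to B1) and -0.311 to 0.149 (C2 to C1) without DMS, and with DMS from -0.141 to 0.0868 (C2 to C1) and -0.0277 to 0.140 (ITS2 up to C2); steps ranged from -0.0721 to 0.318 (C2 to C1 over ITS2 up to C2) and -0.00740 to 0.165 (5.8S over 25S). The DMS effect ranged from -0.120 to 0.0991 points at G of ITS1 in WT, -0.00080 to 0.110 at U of ITS1 in H375A and -0.0834 to 0.0429 at U of ITS2 in H375A. Stretch rates by genotype ranged from -0.0911 to 0.0517 (ITS1), -0.0887 to 0.0576 (A2 to A3), -0.134 to 0.203 (A3 to B1) and -0.0328 to 0.0590 (ITS2). Between stretches, 4 to 7 differences passed; ITS1 minus 25S ranged from 0.144 to 0.204, ITS2 minus 25S from 0.0750 to 0.119, ITS1 minus ITS2 from 0.0666 to 0.105 and ITS1 minus 18S from 0.101 to 0.164. Low depth limits all statements on A3 to B1 and on single sites.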
